A study of Mus musculus with 8 samples.

Results

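MHC class I genes and the genes that supply class I molecules with peptides were followed in mouse embryonic stem (ES) cells in which the zinc-finger transcription factor Sall4 had been lowered and either of its isoforms added back. The 9 genes were H2-K1, H2-D1, H2-Bl, B2m, Tap1, Tap2, Tapbp, Psmb8 and Psmb9. They were chosen by name, through the probe sets that the array's platform annotation ties to 1 of these symbols and to no other gene. Each gene was read by its brightest probe set on average over the arrays, and its other probe sets served as a check. Of 18193 genes with such a probe set, 14027 were kept because the probe set had a present call on 2 or more of the 8 arrays, and all 9 genes were among them.

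Expression was measured in CJ7 cells, an established mouse ES cell line, on 8 arrays in 4 groups of 2. Sall4-depleted cells received a lentiviral short hairpin RNA (shRNA) aimed at Sall4a and Sall4b alike. The same shRNA was present in Sall4a-only as well as Sall4b-only cells, each of which also held a cDNA, resistant to it, for the isoform in the group's name. Control cells carried a lentivirus without an shRNA and kept both isoforms. All groups were exposed to virus for 24 hours with polybrene at 2.5 mcg/mL, then grown with LIF and puromycin at 2 mcg/mL and collected 48 hours after infection. Because the control virus had no shRNA, lower Sall4 and the carriage of an shRNA cannot be told apart in any comparison with control cells. The arrays within a group are labelled as biological replicates, with no word on how their cultures were kept apart, so p-values reflect array-to-array spread that may be partly technical. Whether an add-back line was 1 clone is not stated.

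A class I molecule is a heavy chain, such as the products of H2-K1 and H2-D1, paired with beta-2 microglobulin, the product of B2m. Proteasomes cut cytosolic proteins into peptides, the TAP transporter carries them into the endoplasmic reticulum, and tapasin holds the empty class I molecule at the transporter until a peptide binds. Interferons raise most of these genes together in many cell types, and undifferentiated ES cells are known for low class I at the surface.

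The arrays carried signs of uneven replicates that bear on every result below. The SD over all genes of the log2 difference between replicates was 0.27 in Sall4-depleted, 0.62 in Sall4a-only, 0.28 in Sall4b-only and 0.41 in control cells. Over the 9 genes alone it was 0.16, 0.58, 0.20 and 0.37 in the same order. The brighter Sall4 probe set read 10489 and 10332.5 in Sall4-depleted, 9140.4 and 9043.5 in Sall4a-only cells and 9567 and 9923 in Sall4b-only cells, against 15076.5 and 13778 in control cells. A dimmer Sall4 probe set read 137.3 and 156.0 in Sall4-depleted, 152.4 and 158.3 in Sall4a-only cells and 211.2 and 143.5 in Sall4b-only cells, against 362.0 and 333.6 in control cells. Sall4 RNA was lower by both on all arrays with the shRNA, but by the brighter one it was not gone. Whether either probe set can read an added cDNA is not known. All 10 markers of pluripotent ES cells were called present on every array, with summed intensities of 79232 and 80034 in Sall4-depleted, 92326 and 71511 in Sall4a-only cells and 93000 and 89287 in Sall4b-only cells, against 82765 and 68703 in control cells. With 2 arrays a group an exact two-sided permutation test cannot give a p below 0.333, so differences were tested with limma across all 14027 genes, and adjusted p-values are Benjamini-Hochberg over those genes.

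The heavy chain genes were lower in Sall4-depleted and Sall4b-only cells than in control cells on every array, and no such difference was seen in Sall4a-only cells. None of these differences passed the adjusted threshold of 0.05. H2-K1, a classical class I heavy chain gene, had intensities of 1315 and 1525 in Sall4-depleted cells, 4547 and 2378 in Sall4a-only cells and 1527 and 1473 in Sall4b-only cells, against 2236.5 and 3489 in control cells. The 4 Sall4-depleted and Sall4b-only arrays lay together below all others, and the wide Sall4a-only pair overlapped the control pair. H2-K1 was 1.97-fold lower in Sall4-depleted than in control cells (log2 difference -0.98, SE 0.34, adjusted p = 0.583) and 1.86-fold lower in Sall4b-only than in control cells (-0.90, SE 0.34, adjusted p = 0.309). Without control replicate 2 they were -0.66 and -0.58, and without control replicate 1 they were -1.30 and -1.22.

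H2-D1, the second classical heavy chain gene read here, had 1713 and 1796.5 in Sall4-depleted, 3662 and 2067 in Sall4a-only cells and 1422 and 1545 in Sall4b-only cells, against 2105 and 3078.5 in control cells. Its Sall4b-only arrays were the lowest, the Sall4-depleted arrays came next, and both groups lay below the control arrays without overlap. H2-D1 was 1.45-fold lower in Sall4-depleted than in control cells (adjusted p = 0.760) and 1.72-fold lower in Sall4b-only than in control cells (adjusted p = 0.311). Without control replicate 2 these log2 differences were -0.26 and -0.51, and without control replicate 1 they were -0.81 and -1.05. For Sall4a-only against control cells the log2 difference was 0.24 for H2-K1 (SE 0.34, adjusted p = 0.895) and 0.11 for H2-D1 (SE 0.30, adjusted p = 0.950), and both values had the opposite sign without Sall4a-only replicate 1 (-0.23 and -0.30).

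H2-Bl is a heavy chain gene named for its expression in the blastocyst. Its intensities were 180.0 and 174 in Sall4-depleted, 411 and 438 in Sall4a-only cells and 185 and 169 in Sall4b-only cells, against 254 and 253 in control cells. Both Sall4a-only arrays were above, and all Sall4-depleted and Sall4b-only arrays below, both control arrays. H2-Bl was 1.43-fold lower in Sall4-depleted than in control cells (log2 difference -0.52, SE 0.11, adjusted p = 0.390), 1.67-fold higher in Sall4a-only than in control cells (0.74, SE 0.11, adjusted p = 0.210) and 1.43-fold lower in Sall4b-only than in control cells (-0.52, adjusted p = 0.166). Between add-back and Sall4-depleted cells it was 2.40-fold higher in Sall4a-only cells (95% confidence interval 2.00 to 2.87, adjusted p = 0.0624), where it ranked number 4 of all genes by p. In Sall4b-only against Sall4-depleted cells the interval of its fold was 0.835 to 1.20, around a log2 difference of -0.0011. Set directly against each other, Sall4a-only cells had 2.40-fold more H2-Bl signal than Sall4b-only cells (adjusted p = 0.101, rank 2 of all genes by p). Without Sall4a-only replicate 2, which leaves a lone array in that group, its log2 difference was 1.22 against Sall4-depleted and 1.22 against Sall4b-only cells. With a gene's kept probe sets averaged, H2-Bl passed in Sall4a-only against Sall4-depleted cells (limma adjusted p = 0.0472). H2-Bl has 1 kept probe set, so its own values were unchanged and only those of other genes in the fit differed.

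**Figure D1:**
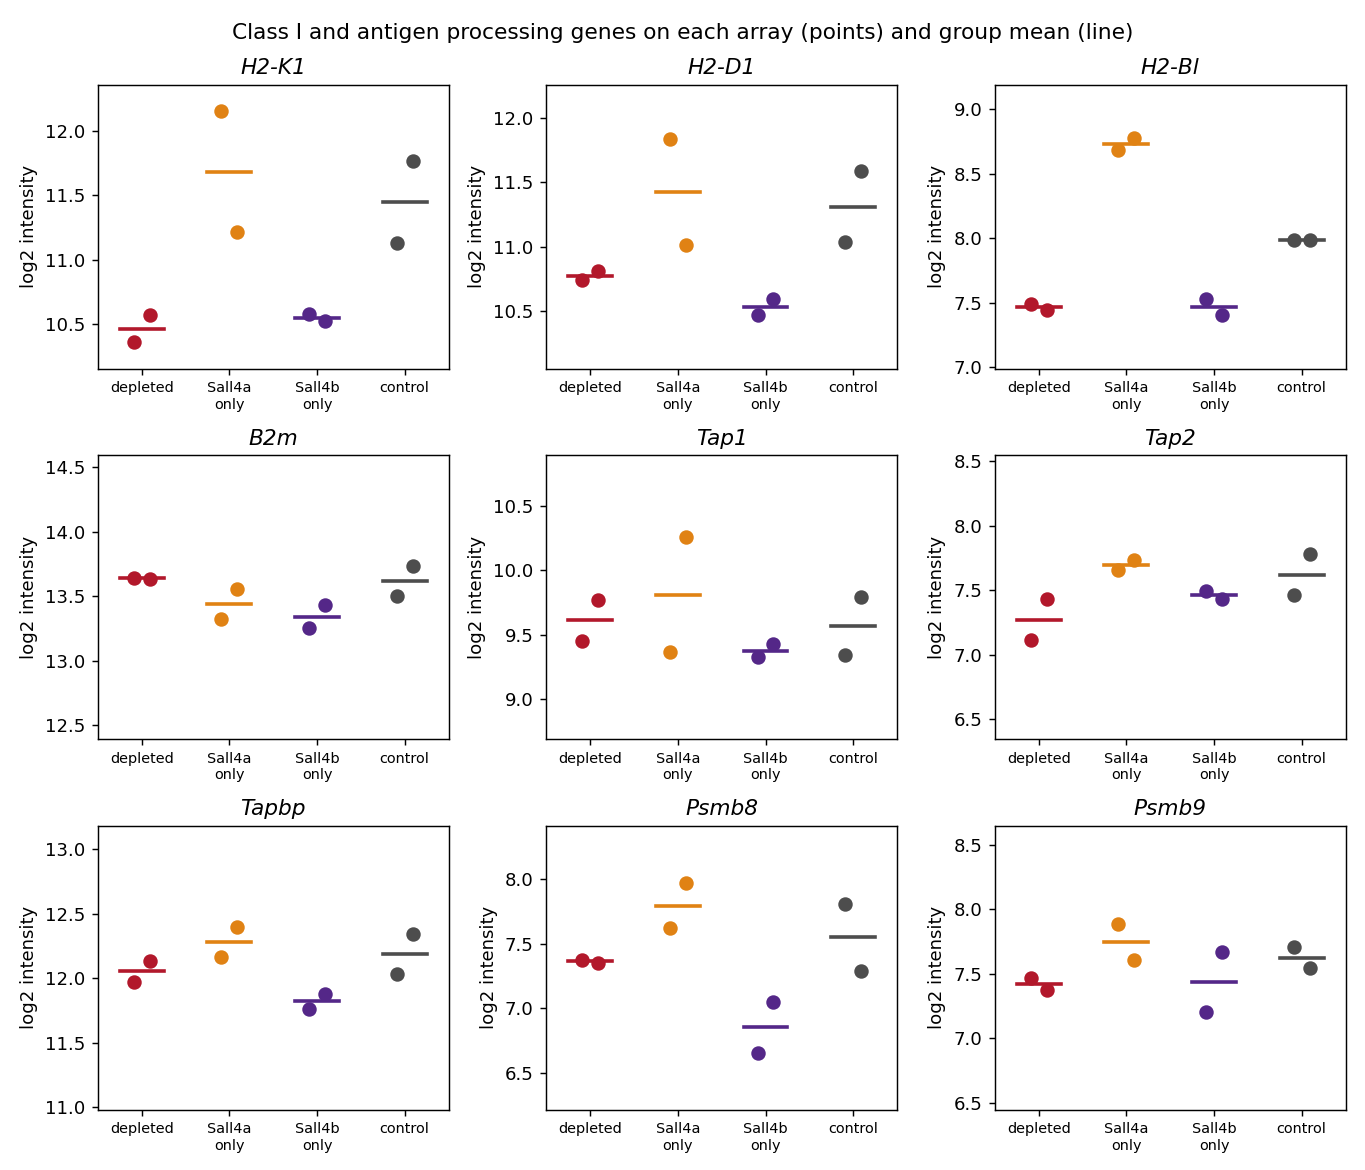
Log2 intensity (vertical axes, each spanning the same number of log2 units) of the 9 genes on each array, in Sall4-depleted, Sall4a-only, Sall4b-only and control cells; points are arrays and lines group means (n = 2). The H2-K1, H2-D1 and H2-Bl points of Sall4-depleted and Sall4b-only cells lie below both control points, whereas the B2m and Tap1 points of Sall4-depleted and control cells overlap.

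H2-K1 and H2-D1 varied together over the arrays, with a Pearson correlation of 0.958 over 8 arrays, given as a description because these genes share sequence and arrays. Their upstream stretches are shown because they too are alike. RefSeq start sites (GRCm38.p6) were matched for 7 of the 9 genes, and the bases before the start are printed 5′ to 3′ on the gene's own strand, for H2-K1 at chr17:34000348-34000597 (minus strand) and for H2-D1 at chr17:35262844-35263093 (plus strand). Capitals mark matches on either strand to GAAANNGAA (interferon response element core), TTCNNNGAA (STAT site), GGGANTTCC and GGGGATTCC (kappa B), CCAAT (Y box) and TGACG (cyclic AMP response element core).
H2-K1: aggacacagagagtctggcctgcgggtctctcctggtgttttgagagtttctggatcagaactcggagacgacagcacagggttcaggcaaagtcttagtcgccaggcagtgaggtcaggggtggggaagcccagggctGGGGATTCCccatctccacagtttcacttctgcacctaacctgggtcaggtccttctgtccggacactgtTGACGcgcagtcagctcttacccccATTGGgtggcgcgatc
H2-D1: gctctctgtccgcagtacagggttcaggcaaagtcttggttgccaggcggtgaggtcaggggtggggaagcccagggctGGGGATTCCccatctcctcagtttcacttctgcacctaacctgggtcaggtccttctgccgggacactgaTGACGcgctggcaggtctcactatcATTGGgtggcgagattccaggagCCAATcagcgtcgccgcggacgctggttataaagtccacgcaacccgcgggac

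Both stretches held GGGGATTCC, found in 0.25% of all 32851 promoter windows of 300 bases, at 111 bases before the start in H2-K1 and at 171 in H2-D1. In both, TGACG followed 70 bases later and a reversed Y box 25 bases after that, so the order and spacing of these matches were the same. A forward Y box came next in each. It stood 53 bases before the start in H2-D1 and at base 9 past the start, beyond the printed stretch, in H2-K1. From a second H2-K1 start the GGGGATTCC match was 125 bases away. TGACG was found in 20.8% and CCAAT in 37.4% of all windows. An ungapped alignment of 190 bases of the H2-K1 and H2-D1 stretches had 166 identical bases (87.4%). The searched interferon response element and STAT letters had no match in either window. Sites that depart from those letters were not searched, so the absence of such elements is not shown. The interferon response element and STAT letters were in 8.56% and 8.30% of all windows, and GGGANTTCC in 1.68%.

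B2m, the light chain gene, did not share the heavy chain pattern in its values. Its intensities were 12803 and 12701 in Sall4-depleted, 10239.6 and 12040.3 in Sall4a-only cells and 9753 and 11061 in Sall4b-only cells, against 11603 and 13612 in control cells. Sall4-depleted arrays lay between the control arrays, and only the Sall4b-only arrays were below both of them. The log2 difference from control was 0.021 in Sall4-depleted cells (SE 0.14, adjusted p = 0.989; 95% confidence interval of the fold 0.796 to 1.29), -0.18 in Sall4a-only cells (adjusted p = 0.784) and -0.28 in Sall4b-only cells (adjusted p = 0.426). Over the 8 arrays B2m correlated at -0.0375 with H2-K1 and at 0.166 with the mean of the other 8 genes. A second B2m probe set gave log2 differences of -0.031, -0.27 and -0.44 from control in the same order. The stretch before the B2m start (chr2:122147437-122147686, plus strand) is printed to set it beside those of the heavy chains, with the same capitals.
B2m: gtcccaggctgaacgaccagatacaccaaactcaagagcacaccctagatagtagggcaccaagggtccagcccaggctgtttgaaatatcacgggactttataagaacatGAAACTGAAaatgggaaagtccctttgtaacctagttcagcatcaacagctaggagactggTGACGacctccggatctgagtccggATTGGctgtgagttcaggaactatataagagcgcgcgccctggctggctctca

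In this stretch the interferon response element letters GAAACTGAA stood 139 bases before the start, TGACG at 78 and a reversed Y box at 53, again with 25 bases between the first letters of the last pair. Neither kappa B string, GGGANTTCC or GGGGATTCC, matched in the B2m window. Kappa B sites of other length or letters were not searched, so their absence is not shown.

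Of the peptide supply genes, the tapasin gene varied most closely with the other genes and the Tap1 gene least. Tap1, a TAP transporter subunit gene, had 702 and 872 in Sall4-depleted, 661 and 1222.5 in Sall4a-only cells and 641.5 and 688 in Sall4b-only cells, against 649 and 885 in control cells. No neighbouring pair of groups was apart, and replicates of Sall4a-only cells differed more than any group means did. Its log2 difference from control was 0.045 in Sall4-depleted (adjusted p = 0.989), 0.25 in Sall4a-only (adjusted p = 0.878) and -0.19 in Sall4b-only cells (adjusted p = 0.812, SE 0.31 in each).

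Tap2, the partner subunit, was dim, with 138.5 and 173 in Sall4-depleted, 202 and 213 in Sall4a-only cells and 181 and 173 in Sall4b-only cells, against 176.5 and 219.6 in control cells. It was called present on 1 Sall4-depleted, 2 Sall4a-only, 1 Sall4b-only and 1 control array, so its values lie near the limit of detection. Sall4-depleted arrays were below both control arrays (log2 difference -0.35, SE 0.16, adjusted p = 0.692; -0.19 without Sall4-depleted replicate 1 and -0.51 without replicate 2), and the Sall4a-only and Sall4b-only values overlapped those of control cells.

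Tapbp, which encodes tapasin, had 4010.5 and 4489 in Sall4-depleted, 4591 and 5384 in Sall4a-only cells and 3477 and 3764 in Sall4b-only cells, against 4176 and 5198 in control cells. Sall4b-only arrays were below all others. Tapbp was 1.29-fold lower in Sall4b-only than in control cells (log2 difference -0.36, SE 0.16, adjusted p = 0.348; -0.21 without control replicate 2) and 1.37-fold higher in Sall4a-only than in Sall4b-only cells (0.46, adjusted p = 0.792). Its log2 difference in Sall4-depleted against control cells was -0.13 (adjusted p = 0.924).

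Psmb8 and Psmb9 encode catalytic subunits of the immunoproteasome, the proteasome form that interferon induces. Psmb8 had 166 and 163 in Sall4-depleted, 196.5 and 250.4 in Sall4a-only cells and 101 and 132 in Sall4b-only cells, against 224 and 156.5 in control cells. It was called present on neither Sall4b-only array and on both arrays of each other group. Psmb8 was 1.62-fold lower in Sall4b-only than in control cells (log2 difference -0.70, SE 0.23, adjusted p = 0.266). It was 1.92-fold higher in Sall4a-only than in Sall4b-only cells (adjusted p = 0.654). Both folds are point estimates, and they are uncertain because neither Sall4b-only array had a present call. The difference from control was -0.44 without control replicate 1 and -0.955 without control replicate 2. Psmb9 had 177 and 165.5 in Sall4-depleted, 237 and 195 in Sall4a-only cells and 147 and 203.5 in Sall4b-only cells, against 209 and 186 in control cells. Its Sall4-depleted arrays were below both control arrays (log2 difference -0.20, SE 0.19, adjusted p = 0.894), and its Sall4b-only arrays overlapped both groups.

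Psmb9 and Tap1 start head to head, and the 225 bases between their starts (chr17:34187331-34187555, plus strand, reading from Psmb9 towards Tap1) are printed because a single stretch lies upstream of both.
Psmb9-Tap1: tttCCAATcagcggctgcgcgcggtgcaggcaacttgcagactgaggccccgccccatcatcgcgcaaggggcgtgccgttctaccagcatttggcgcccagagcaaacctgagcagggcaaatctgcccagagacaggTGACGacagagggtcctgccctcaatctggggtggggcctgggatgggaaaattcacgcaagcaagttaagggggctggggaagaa

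This stretch held a Y box 4 bases from the Psmb9 start and 218 from the Tap1 start. TGACG stood 140 bases from the Psmb9 start and 82 from the Tap1 start. The searched kappa B, STAT and interferon response element letters had no match here, and sites with other letters were not searched. Psmb9 and Tap1 nonetheless had different orders of group means: Tap1 was highest in Sall4a-only, then Sall4-depleted, control and Sall4b-only cells, and Psmb9 in Sall4a-only, then control, Sall4b-only and Sall4-depleted cells. No neighbours in either order were apart beyond their replicates. Of the other windows, that of Psmb8 held a STAT match at 97 bases before the start and that of Tapbp held reversed Y boxes at 248 and 165.

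**Figure D2:**
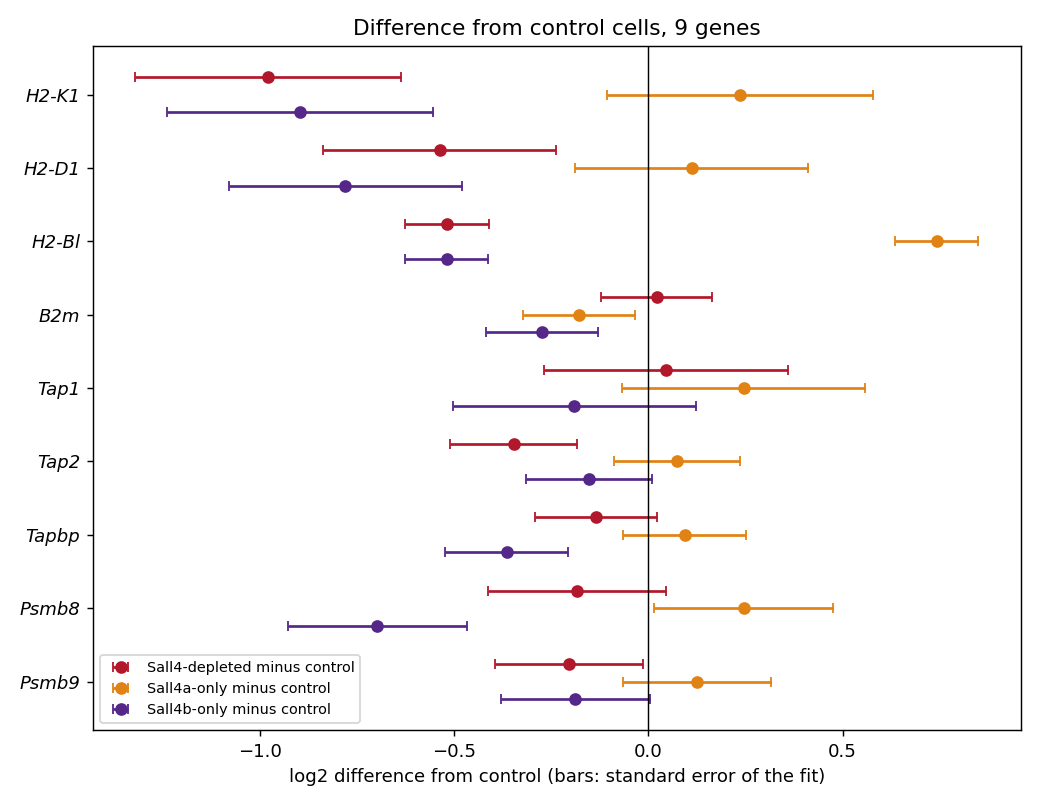
Log2 difference from control cells (horizontal axis) of each of the 9 genes in Sall4-depleted, Sall4a-only and Sall4b-only cells, with the standard error of the fit as bars. H2-K1 is near -0.98 and -0.90 in Sall4-depleted and Sall4b-only cells and at 0.24 in Sall4a-only cells, and B2m lies within 0.28 of 0 in all 3.

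Counted over the 9 genes, 0 passed limma's adjusted threshold in Sall4-depleted against control cells, where 0% of all genes passed. At an unadjusted p under 0.05 there were 2 genes, H2-K1 and H2-Bl, against 7.92% of all genes. Both Sall4-depleted arrays were below both control arrays for 5 of the 9 genes (H2-K1, H2-D1, H2-Bl, Tap2 and Psmb9), against 19.6% of all genes. Group means were lower for 7 and higher for 2, with a median log2 difference of -0.20 beside 0.0038 over all genes. These are bulk samples, so fewer cells with class I RNA and less class I RNA per cell cannot be told apart.

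In Sall4b-only against control cells 0 of the 9 passed, where 1 gene in all passed (0.00713%). All 9 means were lower, with a median log2 difference of -0.36 beside 0.061 over all genes. At an unadjusted p under 0.05 there were 4 genes (H2-K1, H2-D1, H2-Bl and Psmb8), against 15.1% of all genes. Both Sall4b-only arrays were below both control arrays for 6 genes, the heavy chain genes, B2m, Tapbp and Psmb8, against 19.5% of all genes. With both Sall4a-only arrays left out of the fit, a choice made after the data were seen, 0.863% of all genes passed in Sall4b-only against control cells and 0% in Sall4-depleted against control cells, and still 0 of the 9 genes. The lowest adjusted p in that fit was that of H2-Bl, 0.180 for Sall4-depleted and 0.0896 for Sall4b-only against control cells.

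In Sall4a-only against control cells 0 of the 9 passed, where 1 gene in all passed (0.00713%). H2-Bl alone had an unadjusted p under 0.05, against 8.84% of all genes, and was alone in being higher on both arrays without overlap, against 17.8% of all genes. Means were higher for 8 genes and lower for B2m, with a median log2 difference of 0.12 beside 0.035 over all genes. That median was -0.064 without control replicate 1 and 0.25 without control replicate 2.

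Add-back cells were also set against Sall4-depleted cells, which carried the same shRNA. In Sall4a-only against Sall4-depleted cells 0 of the 9 passed (0% of all genes). At an unadjusted p under 0.05 there were 3 (H2-K1, H2-Bl and Tap2), against 7.81% of all genes. Both Sall4a-only arrays were above both Sall4-depleted arrays for 7 genes, all but B2m and Tap1, against 22.9% of all genes, and below them for B2m, against 12.3% of all genes. H2-K1 was 2.32-fold higher (log2 difference 1.22, SE 0.34, adjusted p = 0.478; 0.75 without Sall4a-only replicate 1 and 1.68 without replicate 2), and the median of the 9 genes was 0.42 beside 0.032 over all genes.

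In Sall4b-only against Sall4-depleted cells 0 of the 9 passed by limma (0% of all genes, and 0.471% without the Sall4a-only arrays), and 0 had an unadjusted p under 0.05, against 8.86% of all genes. Both Sall4b-only arrays were below both Sall4-depleted arrays for 5 genes (H2-D1, B2m, Tap1, Tapbp and Psmb8), against 18.9% of all genes, and above them for Tap2, against 37.8% of all genes. The log2 difference of H2-K1 was 0.083 (95% confidence interval of the fold 0.595 to 1.88), and the median of the 9 genes was -0.23 beside 0.065 over all genes. These comparisons share the Sall4-depleted arrays with each other and with the comparison of depletion with control.

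Directly compared, Sall4a-only cells had higher means than Sall4b-only cells for all 9 genes, with a median log2 difference of 0.46 beside -0.029 over all genes. Again 0 of the 9 passed (0% of all genes). At an unadjusted p under 0.05 there were 5, H2-K1, H2-D1, H2-Bl, Tapbp and Psmb8, against 5.85% of all genes. Both Sall4a-only arrays were above both Sall4b-only arrays for 6 genes, those 5 and Tap2, against 14.6% of all genes. H2-K1 was 2.19-fold higher (log2 difference 1.13, SE 0.34, adjusted p = 0.732) and H2-D1 1.86-fold higher (0.89, SE 0.30, adjusted p = 0.786). Without Sall4a-only replicate 1 the log2 differences were 0.67 and 0.48, and without replicate 2 they were 1.60 and 1.31.

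The other probe sets of H2-K1 and H2-D1 are not independent of those used above. Of 26 probe sets with 1 of the 9 symbols, 16 were kept, among them 3 for H2-K1 and 5 for H2-D1. Over the 6 of these 8 that did not stand for their gene above, the log2 difference from control ran from -0.94 to -0.17 in Sall4-depleted cells, with 5 lower without overlap, against 20.8% of all 31554 kept probe sets. In Sall4a-only cells it ran from 0.028 to 0.23, with 0 apart in either direction, against 16.9% of kept probe sets lower and 16.1% higher. In Sall4b-only cells it ran from -0.94 to -0.41, with all 6 lower without overlap, against 26.4% lower and 26.8% higher over kept probe sets. The 8 probe sets correlated with each other over the 8 arrays at 0.841 or more, with a median of 0.968. Class I genes are nearly identical over long stretches, and the probe sets used for H2-K1 and H2-D1 are of the kind whose probes can read related transcripts, so these genes cannot be fully told apart here. Of the kept probe sets that the annotation gives several symbols, 2 hold the symbol of one of the 9 genes. Probe set 1424948_x_at, with 2 symbols, read 107 and 122 in Sall4-depleted, 349 and 174 in Sall4a-only cells and 128 and 114 in Sall4b-only cells, against 175 and 213.5 in control cells. Its log2 differences from control were -0.76, 0.35 and -0.68 in that order. Probe set 1447260_at, with 3 symbols and H2-Bl among them, read 219.8 and 210.2 in Sall4-depleted, 391 and 251 in Sall4a-only cells and 284 and 304 in Sall4b-only cells, against 260.1 and 228 in control cells. Its log2 differences from control were -0.18, 0.36 and 0.27, so its Sall4b-only arrays lay above both control arrays, where those of the H2-Bl probe set used above lay below.

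**Figure D3:**
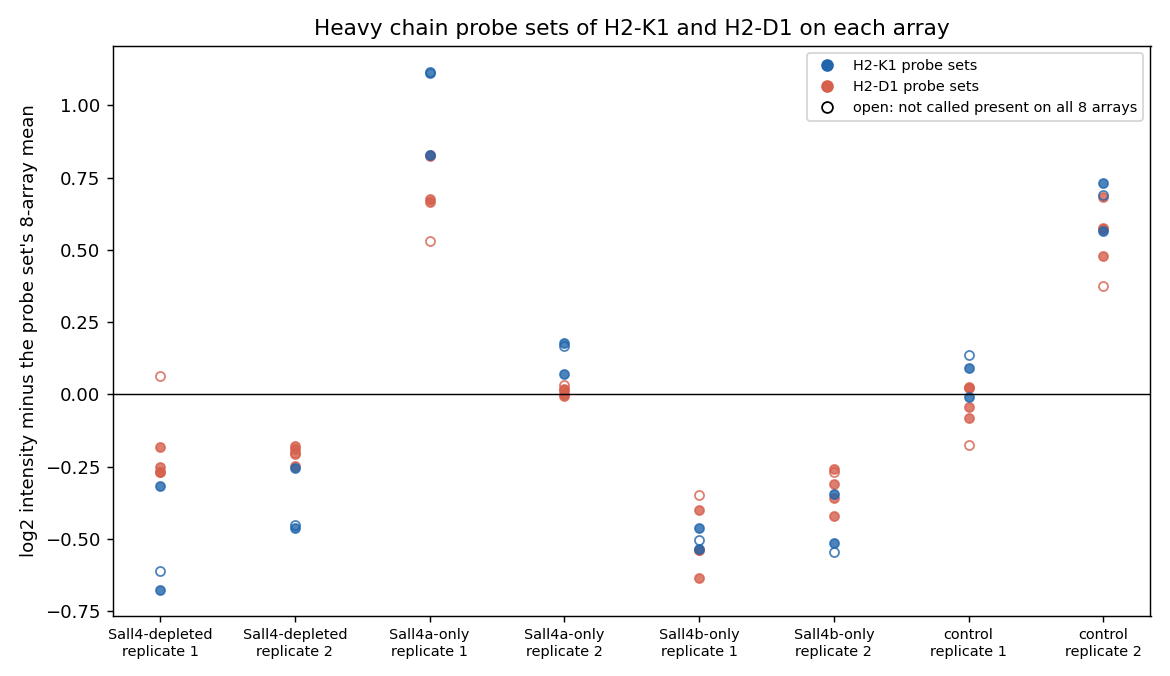
Log2 intensity of the 8 kept H2-K1 and H2-D1 probe sets on each array, minus the probe set's own mean over 8 arrays (vertical axis); open circles are probe sets not called present on all arrays. On every Sall4b-only array all probe sets lie below 0, while Sall4a-only replicate 1 and control replicate 2 are high and the other array of each of these pairs is near 0.

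How the 9 genes varied was also uneven between the replicates. In Sall4a-only cells 3 of the 9 differed by over 0.5 log2 between replicates, H2-K1 and H2-D1 being higher on replicate 1 and Tap1 on replicate 2, where 26.6% of all genes differed as much. In control cells 3 of the 9 differed as much, against 18.8% of all genes, and none did in Sall4-depleted (6.72% of all genes) or Sall4b-only cells (7.14%). Correlation with the mean of the other 8 genes over the arrays was 0.865 for Tapbp, 0.850 for H2-Bl, 0.811 for H2-D1, 0.802 for H2-K1, 0.695 for Tap2, 0.676 for Psmb8, 0.622 for Psmb9, 0.405 for Tap1 and 0.166 for B2m.

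On average, trophoblast markers moved with the class I genes, but single markers did so only in part. The part of markers of other cell types in the result was not tested. The 14 trophoblast markers, all kept, averaged -0.64 and -0.32 log2 against the control mean in Sall4-depleted, -0.11 and 0.058 in Sall4a-only cells and -1.28 and -1.11 in Sall4b-only cells, against -0.12 and 0.12 in control cells. Their summed intensities were 34196 and 49309 in Sall4-depleted, 65740 and 68094 in Sall4a-only cells and 30827 and 30121 in Sall4b-only cells, against 49888 and 66620 in control cells. Taken singly, 13 of the 14 had means below control in Sall4b-only cells. After depletion 10 were lower and 4 higher, all 4 with overlap (log2 difference of Cdx2 0.33, Gata3 0.34, Eomes 0.36 and Ascl2 0.15). With Sall4a added back, 7 were higher than control and 7 lower. There 3 were higher without overlap, against 17.8% of all genes. Lower without overlap were 4 (Plac1 -1.45, Gata2 -0.83, Gata3 -0.75 and Tpbpa -0.48), against 12.2% of all genes. After depletion 7 were lower without overlap (19.6% of all genes), and in Sall4b-only cells 11 (19.5% of all genes). In both of these comparisons 0 were higher without overlap, against 21.5% and 32.2% of all genes. The 9 class I genes averaged -0.37 and -0.27 in Sall4-depleted, 0.20 and 0.18 in Sall4a-only cells and -0.52 and -0.39 in Sall4b-only cells, against -0.10 and 0.10 in control cells, and in both lists the Sall4b-only arrays were lowest and the Sall4-depleted arrays next.

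Fibroblast and feeder markers did not run parallel to the class I genes in every group. The 17 of 20 that were kept averaged 0.56 and 0.38 in Sall4-depleted, -2.07 and 0.067 in Sall4a-only cells and -0.88 and -0.52 in Sall4b-only cells, against 0.15 and -0.15 in control cells. Their summed intensities were 128383 and 121976 in Sall4-depleted, 60406 and 113220.0 in Sall4a-only cells and 85388 and 96406 in Sall4b-only cells, against 102343 and 94152 in control cells. These markers were highest in Sall4-depleted cells, where the 9 class I genes averaged -0.366 and -0.265. They were lowest on Sall4a-only replicate 1, where the 9 genes averaged 0.198. In Sall4b-only cells both lists averaged below control on each array. Of 12 macrophage and other blood cell markers 6 were kept, and Ptprc, the pan-leukocyte gene, was not among them. Those 6 averaged -0.45 and -0.40 in Sall4-depleted, 0.21 and -0.070 in Sall4a-only cells and -0.40 and -0.49 in Sall4b-only cells, against -0.012 and 0.012 in control cells. Like the class I genes, they averaged below control in Sall4-depleted and Sall4b-only cells. In both groups Csf1r, Cd68 and Cd14 were lower without overlap, against 19.6% and 19.5% of all genes. Laptm5 was higher without overlap in Sall4b-only cells, against 32.2% of all genes, and Lyz2 and Cd3e overlapped control.

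**Figure D4:**
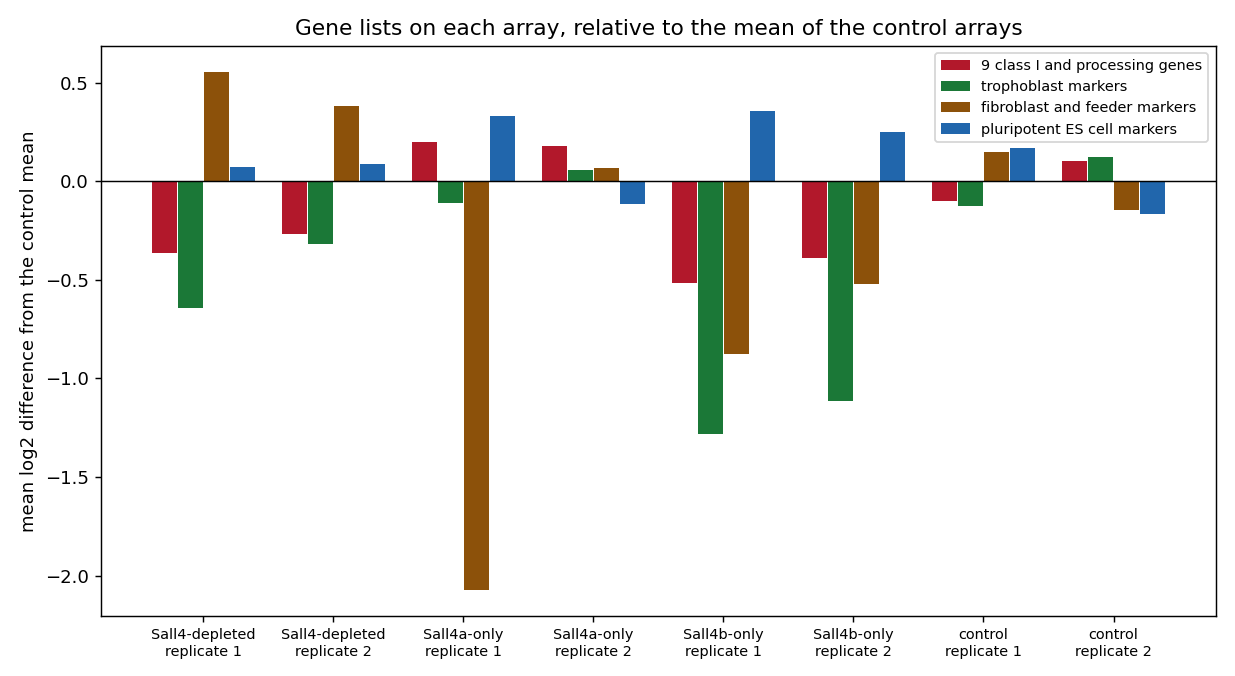
Mean log2 difference from the mean of the control arrays (vertical axis, bars from 0) of the 9 class I and processing genes, 14 trophoblast, 17 fibroblast and feeder and 10 pluripotent ES cell markers on each array. Class I and trophoblast bars point down on all Sall4-depleted and Sall4b-only arrays, whereas the fibroblast bar is at -2.07 on Sall4a-only replicate 1 and above 0 on both Sall4-depleted arrays.

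By a fixed measure, Pearson correlation over the 8 arrays with the mean of the 9 genes, the named genes most alike were Esx1 (0.974), Sh3bp5l (0.972), Cryab (0.966), Krt7 (0.964) and Crb3 (0.960). These are the highest of all genes kept and carry no test. Esx1, a placental homeobox gene, had 199.6 and 209 in Sall4-depleted, 477 and 475.5 in Sall4a-only cells and 172 and 211.5 in Sall4b-only cells, against 373 and 487 in control cells. Krt7, a keratin gene of trophoblast and other epithelia, had 1090.2 and 1697 in Sall4-depleted, 9108 and 4111 in Sall4a-only cells and 507 and 611 in Sall4b-only cells, against 2746.5 and 4308 in control cells. Both are in the list of trophoblast markers.

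In the rest of the pathway no gene passed in any of the 6 comparisons. Of 14 genes of peptide loading and trimming outside the 9, 13 were kept, and their median log2 difference from control was -0.020 in Sall4-depleted, -0.061 in Sall4a-only cells and -0.18 in Sall4b-only cells. Tapbpl, a tapasin relative that edits peptides, had 169.8 and 151 in Sall4-depleted, 143 and 166 in Sall4a-only cells and 123 and 133 in Sall4b-only cells, against 149 and 145 in control cells. Its Sall4b-only arrays were below all others (log2 difference from control -0.20, adjusted p = 0.507). Erap1, which trims peptides in the endoplasmic reticulum, differed from control by 0.063 in Sall4-depleted, 0.098 in Sall4a-only cells and -0.22 in Sall4b-only cells (SE 0.24, adjusted p = 0.711 or more). The cytosolic peptidase genes Npepps and Thop1 differed from control by -0.32 and 0.072 in Sall4-depleted, -0.23 and 0.038 in Sall4a-only cells and -0.28 and 0.34 in Sall4b-only cells.

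Of 13 genes for other proteasome beta subunits, the proteasome assembly factor and proteasome activators, 12 were kept, with medians of -0.026 in Sall4-depleted, 0.022 in Sall4a-only cells and 0.0070 in Sall4b-only against control cells. Psmb10, the remaining catalytic subunit of the immunoproteasome, had 2930.0 and 2547 in Sall4-depleted, 2415.5 and 2708 in Sall4a-only cells and 2529.6 and 2777 in Sall4b-only cells, against 3089 and 1737 in control cells, all within the range of the control pair. Psmb5 and Psmb6, the standard subunits that Psmb8 and Psmb9 replace, differed from control by -0.010 and -0.033 in Sall4-depleted, 0.20 and 0.024 in Sall4a-only cells and 0.013 and 0.037 in Sall4b-only cells. Psme1, a subunit of the interferon-induced activator, was higher on both Sall4a-only arrays (8802 and 7415) than on both control arrays (6703 and 5976), with a log2 difference of 0.35 (SE 0.13, adjusted p = 0.541). Psme4, another activator gene, differed from control by 0.099 in Sall4-depleted, 0.019 in Sall4a-only cells and 0.19 in Sall4b-only cells.

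Of 26 regulators of class I transcription and of interferon signalling, 21 were kept, with medians of -0.14 in Sall4-depleted, -0.045 in Sall4a-only cells and -0.16 in Sall4b-only against control cells. Nlrc5, the class I transactivator, had 95.9 and 111 in Sall4-depleted, 93.2 and 148 in Sall4a-only cells and 91.4 and 125 in Sall4b-only cells, against 134 and 96.2 in control cells. The groups overlapped throughout. Irf1, a transcription factor that interferon induces, had 1207 and 1209.6 in Sall4-depleted, 1103 and 1018 in Sall4a-only cells and 1027 and 1014.5 in Sall4b-only cells, against 1117 and 979 in control cells. Its Sall4-depleted arrays were the highest, where the heavy chain genes were low (log2 difference from control 0.21, SE 0.12, adjusted p = 0.756).

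Ifngr2, a subunit of the interferon gamma receptor, had 564 and 492 in Sall4-depleted, 351 and 589 in Sall4a-only cells and 317 and 388 in Sall4b-only cells, against 644.5 and 847 in control cells. It was lower than control on all 6 arrays with the shRNA, with log2 differences of -0.49 in Sall4-depleted (adjusted p = 0.763), -0.70 in Sall4a-only (adjusted p = 0.561) and -1.08 in Sall4b-only cells (adjusted p = 0.201, SE 0.28 in each). Tyk2, a kinase of interferon receptors, had 517 and 679 in Sall4-depleted, 679.8 and 787 in Sall4a-only cells and 932 and 822 in Sall4b-only cells, against 577 and 453 in control cells. Its difference was in the other direction, at 0.21 in Sall4-depleted, 0.52 in Sall4a-only cells and 0.78 in Sall4b-only cells (adjusted p = 0.892, 0.541 and 0.197). Rfxap, part of the complex that binds class I and class II promoters, differed from control by -0.48 in Sall4-depleted, -0.56 in Sall4a-only cells and -0.74 in Sall4b-only cells (adjusted p = 0.301 or more). Irf9, which joins STAT proteins in the response to type I interferon, differed by -0.47, 0.023 and -0.32 in that order.

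Of 31 other class I and class I-like genes only 8 were kept, with medians of -0.035 in Sall4-depleted, 0.051 in Sall4a-only cells and 0.027 in Sall4b-only against control cells. H2-Q2, of the Q region, was dim, with 17.6 and 29.4 in Sall4-depleted, 34.8 and 42.5 in Sall4a-only cells and 18.4 and 17.9 in Sall4b-only cells, against 21.4 and 49.8 in control cells. Its control arrays lay so far apart that both Sall4a-only arrays fell between them, while both Sall4b-only arrays were below them. Fcgrt, Hfe and Ulbp1, class I-like genes for an IgG receptor, an iron regulator and a ligand of natural killer cells, differed from control by -0.33, 0.19 and -0.049 in Sall4-depleted cells. In Sall4a-only cells they differed by -0.054, 0.51 and -0.49, and in Sall4b-only cells by 0.27, 0.56 and -0.055. Of 11 MHC class II genes 4 were kept, with medians of 0.071 in Sall4-depleted, -0.060 in Sall4a-only cells and 0.028 in Sall4b-only against control cells. Of these, Cd74, the invariant chain, differed from control by 0.47 in Sall4-depleted, 0.36 in Sall4a-only cells and 0.30 in Sall4b-only cells, and the class II chain gene H2-Ab1 by -0.33, -0.18 and -0.39 in the same order. The peptide-exchange genes H2-DMa and H2-DMb2 differed by 0.011 and 0.13 in Sall4-depleted, -0.32 and 0.060 in Sall4a-only cells and -0.24 and 0.55 in Sall4b-only cells.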

How the data were processed

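Per the labels, RNA of CJ7 cells was extracted, amplified and hybridised to 8 arrays. Intensities were deposited by the authors as linear values, which the submitters' processing notes tie to RMA (version not stated), beside deposited present, marginal or absent calls of unstated method. From these, log2 was taken with no pseudocount and no further normalization; array medians ran from 140.7 to 149.8, and 62.1% to 66.5% of probe sets were called present. Probe sets present on at least 2 arrays were kept (31554, of which 26080 had 1 gene symbol), and the brightest stood for its gene. R 4.3.3 with limma 3.58.1 fitted 4 group means to all 8 arrays (4 residual degrees of freedom, 6.20 after moderation) for 6 comparisons. Other probe sets came from the same fit over all kept probe sets. A fold is uncertain where the dimmer group had no present call. Precision is limited by the number of arrays, and no level is compared between genes. The fit was run on simulated data with the same spread in every group, which does not test it under the unequal spread seen here. Named beside the 9 genes are up to 4 members of each pathway list with the widest range of group means, Nlrc5, Irf1, Psmb10, Tapbpl, Erap1, Psmb5 and Psmb6, and the 5 genes most correlated with the 9; 1 further gene of that rule is not reported here. The genes, lists and tests were chosen with earlier results of these data known. Alternatives were a stricter filter, quantile normalization, averaged probe sets, a trended robust prior, fits of the compared groups alone, the replicate block and leaving out arrays.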

Additional observations from a re-analysis of the deposited data

How the results depend on the processing

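None of the 9 genes passed the adjusted threshold except H2-Bl. In Sall4a-only cells it passed with replicate 2 left out (log2 difference 1.22 against Sall4-depleted and 1.22 against Sall4b-only cells). There the remaining array stands for its group and is assumed to vary like the others. It also passed with a gene's kept probe sets averaged (limma adjusted p = 0.0472 against Sall4-depleted cells, 1 gene of the 9). That setting left its own values unchanged, as it has 1 kept probe set.
Over all 14027 genes the counts past the threshold moved more. They are given for Sall4-depleted (D), Sall4a-only (A) and Sall4b-only (B) cells and control (C). With probe sets present on at least 6 arrays, 0 genes passed in A against C and 0 in B against C, and the median of the genes left in A against B was 0.68. Quantile normalization gave 8 in B against C, 1 in A against D and 3 in B against D. Averaged probe sets gave 2 in A against C and 6 in A against D. With the replicate block, 0 passed in A against C and 2 in B against C; same-numbered arrays deviated together at 0.568 for D and C but between -0.116 and 0.196 otherwise, so the numbers are not shown to pair the arrays. Fits of the compared groups alone gave 0 in A against C, 14 in B against C and 61 in B against D. A trended robust prior gave 2 in D against C, 7 in A against C, 17 in B against C, 8 in A against D and 7 in B against D. Without both A arrays, 121 passed in B against C and 66 in B against D.
Leaving out each array in turn gave 0 to 1 genes in D against C, 0 to 110 in A against C, 0 to 121 in B against C, 0 to 287 in A against D, 0 to 66 in B against D and 0 to 47 in A against B, and 0 to 1 of the 9 in A against D and in A against B. The highest counts came without A replicate 2, except in D against C (without D replicate 2). The median of the 9 ran from -0.064 to 0.25 in A against C, -0.44 to -0.27 in B against C, -0.29 to -0.079 in B against D and 0.40 to 0.57 in A against B. Small differences changed sign. In D against C, B2m ran from -0.094 to 0.14, Tap1 from -0.18 to 0.27, Tapbp from -0.29 to 0.023 and Psmb8 from -0.44 to 0.074. In A against C, H2-K1 ran from -0.23 to 0.70, H2-D1 from -0.30 to 0.53, Tap1 from -0.20 to 0.69, Tap2 from -0.084 to 0.23, Tapbp from -0.064 to 0.25, Psmb8 from -0.012 to 0.50 and Psmb9 from -0.015 to 0.27. In B against C, Tap1 ran from -0.41 to 0.033, Tap2 from -0.31 to 0.0044 and Psmb9 from -0.42 to 0.046. In B against D, H2-K1 ran from -0.024 to 0.19, H2-Bl from -0.063 to 0.061 and Psmb9 from -0.22 to 0.25. Tap1 ran from -0.24 to 0.64 in A against D and from -0.0068 to 0.88 in A against B, where B2m ran from -0.021 to 0.21.
Other settings turned B2m in D against C (-0.0052 with averaged probe sets and -0.031 by its second probe set), H2-K1 in B against D (-0.022 with averaged probe sets and -0.16 by probe set 1451931_x_at) and Psmb9 in B against D (-0.030 with quantile normalization). The causes of the changes were not tested. For single genes of the 9, 839 of 873 values kept their direction and side of the threshold, 31 turned and 3 passed it newly; the heavy chain genes kept their direction in D against C and in B against C under every setting run.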

Other observations

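Some class I and class I-like probe sets are given several gene symbols by the annotation and were not counted among the 9 genes. Of these, 9 were kept. In Sall4b-only against control cells 4 were lower and 2 higher without overlap, against 26.4% lower and 26.8% higher over all 31554 kept probe sets. The other 3 overlapped. Log2 differences ran from -1.58 to 0.60, with no limma adjusted p below 0.106. The 3 described here were chosen after their values were seen. Probe set 1449875_s_at, with 3 symbols, read 745 and 736 in Sall4-depleted, 591 and 859 in Sall4a-only and 187 and 283 in Sall4b-only cells, against 664 and 711 in control cells. Its Sall4b-only arrays were below all others, at 2.99-fold lower than control (log2 difference -1.58, SE 0.25, limma adjusted p = 0.106) and 3.22-fold lower than Sall4-depleted cells (-1.69, adjusted p = 0.247). In Sall4-depleted against control cells its log2 difference was 0.11 (adjusted p = 0.970), so the Sall4-depleted arrays, which were low for H2-K1, H2-D1 and H2-Bl, were not low for this probe set. Probe set 1449556_at, with 2 symbols, read 69.5 and 68.8 in Sall4-depleted, 115 and 106 in Sall4a-only and 53.3 and 64.4 in Sall4b-only cells, against 82.0 and 97.9 in control cells. As for H2-Bl, its Sall4a-only arrays were above, and its Sall4-depleted and Sall4b-only arrays below, both control arrays. Its Sall4b-only arrays were also below its Sall4-depleted arrays, whereas for H2-Bl these groups overlapped. This probe set was called present on 5 of the 8 arrays, and no difference passed (limma adjusted p = 0.160 or more). Probe set 1420603_s_at, with 2 symbols, went the other way, with 1489 and 1551 in Sall4-depleted, 1714 and 1087 in Sall4a-only and 1852 and 2332 in Sall4b-only cells, against 1433 and 1311 in control cells. Its Sall4b-only arrays were above all others, with a log2 difference of 0.60 from control (adjusted p = 0.275), and Sall4a-only minus Sall4b-only was -0.61 (adjusted p = 0.870).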
